A study of Mus musculus with 2 samples.

Results

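Described here are 10 transcripts of maturing neutrophils, S100a8, S100a9, Ngp, Camp, Ltf, Lcn2, Chil3, Cd177, Retnlg and Lyz2, among the 27998 genes counted in single-cell RNA sequencing of haematopoietic stem and progenitor cells (HSPCs). They were listed by symbol, and all 10 were found in both libraries. The list was drawn up from the difference between the libraries, so that difference is given as a description and supports nothing. The libraries were made from bone marrow of 3-month-old mice, which was depleted of lineage-positive cells and sorted for c-Kit, Sca-1 and Flt3, and 1 library was made per genotype. The labels give the Trmt6 WT library as Trmt6fl/fl and the Trmt6 cKO library as Trmt6fl/fl, MX1-cre. The study's text instead describes Mx1-Cre mice given pIpC in both genotypes, with the wild-type mice as Trmt6+/+. Mx1-Cre is an interferon-inducible recombinase that acts in blood cells and other tissues. Genotype and library go together, how many mice went into each is not given in the sources used here, so the differences given here cannot be checked against replicates. Values are counts of unique molecular identifiers (UMIs, 1 per captured transcript) or CPM (counts scaled to a common total of UMIs over the cells concerned). Intervals are exact 95% intervals that cover counting error only.

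Neutrophils fill their granules in a fixed order as they mature in the marrow. Azurophil granules with myeloperoxidase and elastase come at the promyelocyte stage, secondary granules with lactoferrin, lipocalin and cathelicidin follow at the myelocyte stage, and the calcium-binding S100A8 and S100A9 fill the cytosol. Stem cells and early progenitors precede all of these steps, and the transcription factor C/EBPε is known for driving the secondary granule genes.

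The S100 pair lies close together in the genome (GRCm38), and the other members are further apart. S100a8 (ENSMUSG00000056054, chromosome 3, 90668978 to 90670035, plus strand) and S100a9 (ENSMUSG00000056071, 90692632 to 90695721, minus strand) are 22596 bases apart. Camp (109847379 to 109849617, minus strand), Ngp (110419747 to 110423012, plus strand) and Ltf (111019271 to 111042767, plus strand) fall within 1195389 bases of chromosome 9. The remaining members are Lcn2 (chromosome 2, 32384633 to 32388252), Chil3 (chromosome 3, 106147554 to 106167564), Cd177 (chromosome 7, 24743983 to 24760311), Lyz2 (chromosome 10, 117277331 to 117282321) and Retnlg (chromosome 16, 48872621 to 48874496).

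Promoters from 250 bases before to 50 bases after the RefSeq start (GRCm38.p6) were searched for 2 motifs of factors that neutrophil precursors use. The first was the C/EBP letters TTGCNNAA, or TTNNGCAA on the other strand, which were found in 5 of the 10 members and in 10.8% of all 32851 promoters. The second was GAGGAAG, or CTTCCTC on the other strand, letters bound by PU.1, found in 2 of the 10 members (Lcn2 and S100a8) and in 13.6% of all promoters. The C/EBP matches were in Lcn2, Ltf, Ngp, Retnlg and S100a9, and none overlapped a PU.1 match. A match is a run of letters and not a measured site. The sequences below show the C/EBP letters in capitals for Lcn2, Ltf, Ngp and S100a9. Each is on the strand of its gene, with the position of the first letter from the start site. A second Ngp match, at position -11, and the Retnlg match are not shown.
Lcn2, chr2:32387938-32387965, minus strand, position -216: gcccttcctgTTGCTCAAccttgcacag
Ltf, chr9:111019207-111019234, plus strand, position -75: ggcaggcctaTTGGGCAAtagggtgggg
Ngp, chr9:110419660-110419687, plus strand, position -138: tcctggtttaTTGCCCAAacctccttgc
S100a9, chr3:90695940-90695967, minus strand, position -236: gtaggctgtcTTGCTTAAgatttgggcg

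Filtering by the study's limits and doublet removal left 8150 cells (42247594 UMIs) in the WT library and 8479 cells (87995634 UMIs) in the cKO library. The cKO library was deeper, with a median of 10137 UMIs per cell against 4218.5 in WT, so shares of cells with a UMI are also given after thinning each cell to 2000 UMIs (194 WT and 101 cKO cells were shallower and not used there). Trmt6, the targeted gene, had a cKO over WT log2 ratio of -0.33 (-0.40 to -0.26), from 63.3 and 50.2 CPM, and counts from the 3-prime end do not show whether the floxed exon was present. The libraries shared 24 cell barcodes, which held no cKO UMI of the members other than Lyz2.

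The members were abundant in the WT library and, with the exception of Lyz2 and Lcn2, close to absent from the cKO library. Together they gave 238505 WT UMIs (5645 CPM) and 14627 cKO UMIs (166 CPM), of which Lyz2 alone gave 13922 in cKO. Of the 10 members, 9 reached 5 CPM in a library, and these 9 were all more than 2-fold lower in cKO, against 5.32% of the 9139 genes at that level. On the other side, 2.91% of genes were more than 2-fold higher and no member was. The members were listed from this contrast, and Ltf, Chil3 and Cd177 reached 5 CPM only through few WT cells described below, so nothing is read from the count. In values summed over a library, fewer cells of a type and less RNA per cell cannot be told apart.

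The S100 pair, which forms the calprotectin heterodimer, was highest in WT. S100a8 was counted 97291 times in WT (2303 CPM) and 78 times in cKO (0.886 CPM), a log2 ratio of -11.33 (-11.68 to -11.02). S100a9 went with it, at 47669 and 31 UMIs (1128 and 0.352 CPM; log2 ratio -11.62, -12.20 to -11.14). Both libraries thus held more S100a8 than S100a9, in a count that takes 1 UMI per transcript whatever its length.

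The secondary granule proteins spanned a wide range of levels. Ngp, a cathelicidin-related granule protein, had 38188 WT and 11 cKO UMIs (904 and 0.125 CPM; log2 ratio -12.76, -13.82 to -11.98). Camp, which encodes the antimicrobial cathelicidin, had 28187 and 16 UMIs (667 and 0.182 CPM; -11.80, -12.65 to -11.14). Ltf, the iron-binding lactoferrin, was lower in WT than these, with 2591 UMIs against 25 in cKO (61.3 and 0.284 CPM; -7.73, -8.38 to -7.19). Lcn2, the siderophore-binding lipocalin, had 2188 WT and 535 cKO UMIs (51.8 and 6.08 CPM; -3.09, -3.23 to -2.95). In WT the level of Lcn2 could not be told from that of Chil3 (50.1 CPM), since their counting intervals overlap, and the other neighbours in the order of levels were apart beyond counting error.

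Chil3 (Ym1, a chitinase-like secreted protein) had 2116 WT and 5 cKO UMIs, a log2 ratio of -9.65 (-11.41 to -8.56). Cd177, a surface glycoprotein of neutrophils, had 415 UMIs in WT (9.82 CPM) and 0 in cKO. Against 3 counts over the whole cKO library (0.0341 CPM), Cd177 was at least 288-fold lower. Retnlg, a resistin-like secreted protein of late neutrophils, had 209 WT and 4 cKO UMIs (4.95 and 0.0455 CPM; -6.60, -8.66 to -5.39). Lyz2, the lysozyme of macrophages and granulocytes that early myeloid cells also use, stood apart from the others. Lyz2 had 19651 WT and 13922 cKO UMIs, or 465 CPM (459 to 472) and 158 CPM (156 to 161), a log2 ratio of -1.56 (-1.59 to -1.52).

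**Figure D1:**
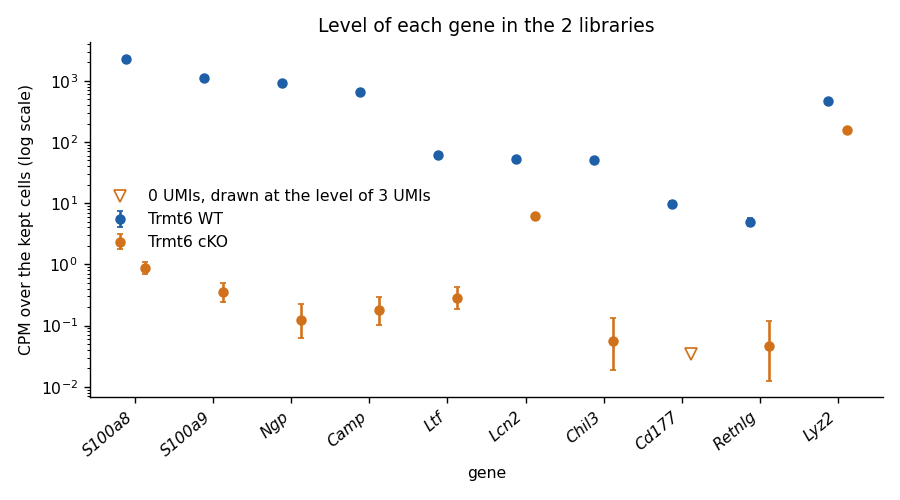
Level of each member in CPM over the kept cells (log axis) in the Trmt6 WT and Trmt6 cKO libraries, 1 library each, with exact 95% Poisson intervals where they exceed the symbol. Cd177 had 0 UMIs in cKO and is drawn at the level of 3 UMIs (0.0341 CPM). Lyz2 (465 and 158 CPM) and Lcn2 (51.8 and 6.08 CPM) are the closest pairs.

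The WT UMIs lay in very few cells. The top 1% of cells, 82 cells ranked by the summed members, held 91.0% of the WT member UMIs, 23 cells held 50% of them and 62 cells held 90%. In the cKO library the top 1% (85 cells) held 4.85%, and 1736 cells were needed for 50%. Without Lyz2 the top 1% held 96.0% in WT and 51.3% in cKO, where 705 UMIs were counted in all. The largest WT cell had 8175 member UMIs, and the largest share of a WT cell was 65.7% of its UMIs. No cKO cell had more than 37 member UMIs or 0.168% of its UMIs from the members.

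Each member was also ranked by its own UMIs in WT. The top 1% of cells held 96.8% of S100a8, 96.1% of S100a9, 95.3% of Ngp, 95.2% of Camp, 97.0% of Ltf, 93.7% of Lcn2, 95.4% of Chil3, 99.8% of Cd177 and 100% of Retnlg. Cd177 and Retnlg had UMIs in only 83 and 45 cells, so their shares are close to what so few positive cells must give. Lyz2 again differed, with 35.9% in the top 1%, 581 cells for 50% of its UMIs and 3913 cells for 90%. In cKO the top 1% held 4.49% of the Lyz2 UMIs.

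The same share was computed for other genes as a description. Of 2716 genes at 50 CPM or more in WT, the median gene had 8.23% of its UMIs in its top 1% of cells, and 8 genes (0.295%) had over 90%. These 8 genes were 7 of the members and Wfdc21 (96.5%), a secreted protein of the whey acidic protein family that neutrophils express. Of the 8, Ngp, Camp, Ltf, Lcn2, Chil3 and Wfdc21 reached 50 CPM only through the member-rich cells defined below, so their place here was set by the filter. Among the 2704 genes at 50 CPM or more outside those cells, 2 genes (0.0740%) had over 90%, S100a8 and S100a9. The next genes in the first order were Cd74 (75.4%), the invariant chain of MHC class II, and Pf4 (69.1%), a platelet chemokine. The azurophil proteins Elane (45.9%) and Mpo (22.5%) were spread over more cells.

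**Figure D2:**
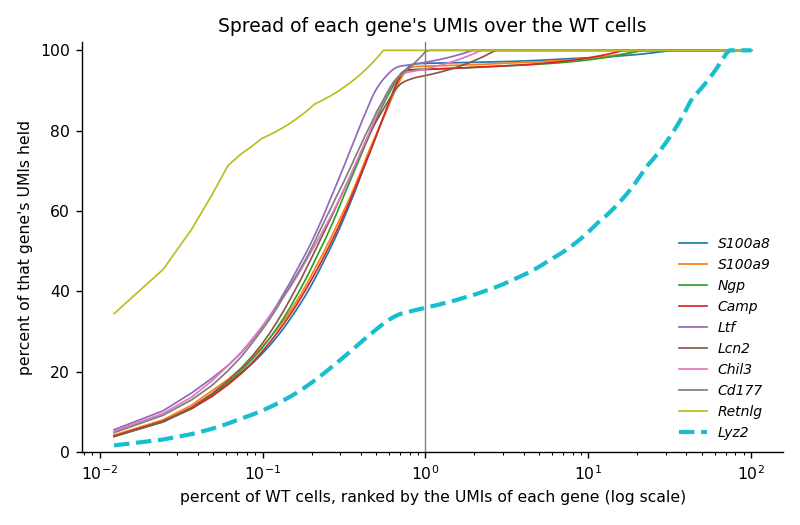
Percent of each member's WT UMIs (vertical axis) held by the given percent of the 8150 WT cells, ranked by that member's own UMIs (log axis). The grey line marks 1% of cells: there 9 members lie between 93.7% and 100%, and Lyz2 (dashed) at 35.9%.

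Most of the cells that held these UMIs lay well apart from the rest, with few cells between. Cells with 5% or more of their UMIs from the members are called member-rich here, which is a range of a per-cell share and not a named type. There were 65 of them in WT, 0.798% of cells (0.616 to 1.02), and they held 215436 member UMIs, 90.3% of the total. In cKO there were 0 of 8479 cells, a count that leaves room for a share of at most 0.0354%. Few WT cells lay near the limit. The 3 cells just under it had 4.48%, 4.36% and 3.45% of their UMIs from the members and the 3 just over it 5.15%, 9.48% and 10.7%, while 50 cells had 40% or more and 8074 had under 0.5%. Doublet scoring had removed a further 24 WT barcodes over 5%, in which the members took a median of 27.3% of the UMIs, against 50.9% in the 65 that were kept.

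**Figure D3:**
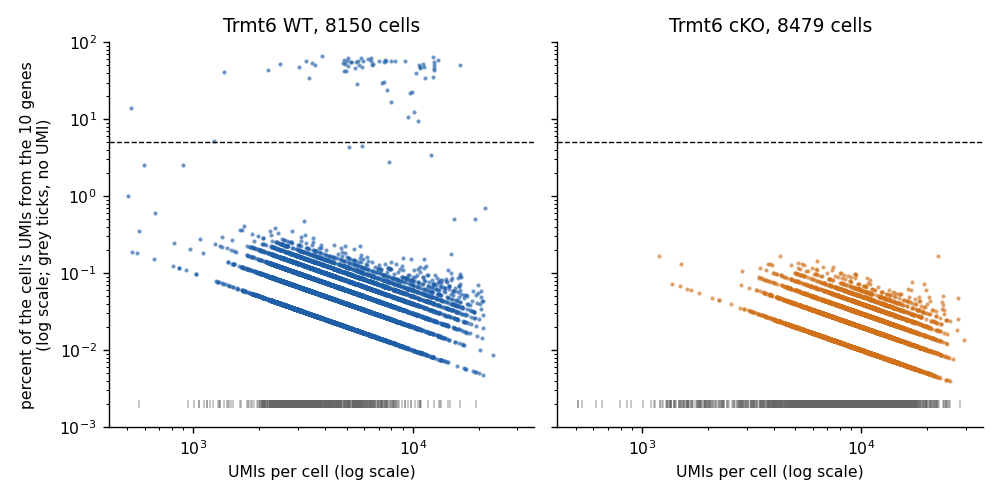
Percent of each cell's UMIs from the 10 members (log axis) against the cell's UMIs (log axis), in 8150 Trmt6 WT and 8479 Trmt6 cKO cells. Points are cells, grey ticks are cells with no member UMI and the dashed line is 5%. The 65 WT cells over the line lie above the main cloud, with few cells between, and no cKO cell exceeds 0.168%. The slanting bands are cells with 1, 2, 3 and more UMIs.

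The member-rich cells had a median of 6489 UMIs (517 to 16358) and 1408 genes, and 210 genes per 1000 UMIs against 395 in the other WT cells. Their mitochondrial share had a median of 0.558% against 2.52%, and their doublet score a median of 0.44 against 0.40. S100a8 had UMIs in all 65 cells, with a median of 1435 per cell (16 to 3831), and S100a9 in all 65, with a median of 648 (22 to 2011). The median cell also held 501 UMIs of Ngp, 380 of Camp, 93 of Lyz2, 34 of Ltf, 27 of Lcn2, 26 of Chil3 and 5 of Cd177. Ngp and Camp were found in 65 of the 65 cells, Lyz2 in 64, Lcn2 in 63, Chil3 in 62, Ltf in 59, Cd177 in 57 and Retnlg in 26. Retnlg thus was the member with the fewest positive cells, and 3 cells held 50% of its 209 UMIs.

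Co-detection was described over the 7956 thinned WT cells, with no test. Over the 45 pairs of members, the number of cells with both was a median of 5.27 times the product of the single shares, from 1.09 for S100a8 with Lyz2 to 66.1 for Cd177 with Retnlg. S100a8 and S100a9 were found together in 231 cells against a product of 158, and Ltf and Lcn2 in 52 cells against 1.31. Among the cells with Cd177, 87.7% also had S100a8. Outside the member-rich cells the median ratio was 1.12 (0.854 to 1.47) over the 20 pairs whose product was 5 cells or more. All pairs share the library and the thinned depth.

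The number of members detected per cell separated the same cells. Of 62 thinned member-rich cells, 61 had UMIs of 5 or more members (median 9, fewest 4), whereas of 7894 other thinned WT cells 1 had 5 and none had more. Before thinning, 62 WT cells had UMIs of 8 to 10 members, and all of them were member-rich. In cKO most of the positive cells had a single member: 6000 of 8479 cells had 1, 262 had 2, 5 had 3, 1 had 5 and none had more. In the thinned cKO cells, 2349 had 1 member, 24 had 2 and none had 3.

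Among the member-rich cells the members were tied to each other to different degrees. The S100 pair moved most closely together, with a Spearman correlation of 0.89 between their shares of a cell's UMIs (n = 65 cells of 1 library, a description). Ngp went with Lyz2 (0.66) and Lcn2 (0.61), and Ltf with Lyz2 (0.65). S100a8 was loosely tied to Camp (0.25) and had no visible relation to Chil3 (0.02), while Chil3 went with Camp (0.46). All of these shares are parts of the same total, which by itself ties them to each other.

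Azurophil and early myeloid transcripts (Mpo, Elane, Prtn3, Ctsg, Ms4a3, Nkg7, Srgn and Clec12a) set some of the member-rich cells apart. In 11 of the 65 cells they took 1% or more of the UMIs, with a median of 4.34%, and in the other 54 a median of 0.0256%. The 1% limit was chosen after the values were seen. In the 11 cells the members took a median of 21.8% of UMIs against 52.6% in the 54, and S100a8 took 8.22% against 22.2%. Ltf had UMIs in 5 of the 11 cells and in 54 of the 54, and Retnlg in 1 of 11 and 25 of 54. Lyz2 took a median of 0.261% of UMIs against 1.65%.

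The mix of the members also differed between these cells. As a share of the member UMIs of a cell, Camp had a median of 20.3% in the 11 cells and 11.6% in the 54, and Chil3 1.18% and 0.787%. Ngp went the other way, with 11.1% and 16.7%, and so did Lcn2 (0.296% and 0.966%), Ltf (0 and 1.17%) and Lyz2 (1.10% and 3.30%). The S100a8 part was alike in both, at 43.0% and 44.1%. Mki67, a proliferation marker, had UMIs in 6 of the 11 and in 30 of the 54 cells.

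**Figure D4:**
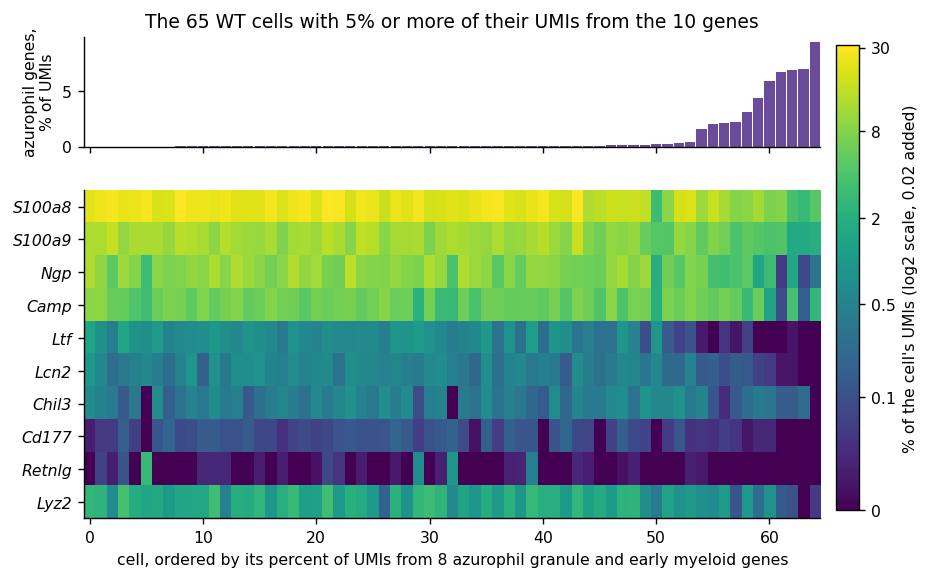
The 65 member-rich WT cells, ordered from left to right by the percent of their UMIs from 8 azurophil granule and early myeloid genes (bars, linear axis), with the percent of the cell's UMIs from each member as colour (log2 scale with 0.02 added). The 11 cells on the right, at 1% or more azurophil UMIs, have the fewest Ltf UMIs (5 of 11 cells with any), while S100a8, S100a9 and Camp have UMIs in every cell.

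Other neutrophil transcripts were found in the same cells. Of a list of 34 late and tertiary granule genes, 33 were in the matrix and 14 reached 5 CPM in the other WT cells or in cKO. Of these 14 genes, 10 were more than 4-fold higher in member-rich than in other WT cells and 1 was more than 4-fold lower, against 1.54% and 26.2% of all 9136 genes at that level. Ifitm6, Fcnb, Cybb and Ceacam1 reached 5 CPM in WT only through the member-rich cells and were left out of this count. The median log2 ratio of the 14 was 4.48, and that of all genes -1.08. Anxa1, which encodes annexin A1, had the second highest WT level of the list, at 4213 CPM in member-rich and 133 CPM in other cells. Wfdc17, with the highest WT level, went against the list, with 3 UMIs in the member-rich cells and 232 CPM in the others.

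Ly6g, the antigen by which mouse neutrophils are sorted, had 69 UMIs in WT, all of them in 28 of the 65 member-rich cells, and 0 in cKO. Fcnb (ficolin B) had 87.9% of its 1136 WT UMIs there, and Orm1, an acute phase protein, 116 of 118. Over the 33 list genes detection was uneven: 16 had UMIs in over 50% of the member-rich cells, such as Pglyrp1 (64 of 65) and Cybb (62), 5 in 20% to 50% and 12 in under 20%. Among the last, Mmp9 (gelatinase) had UMIs in 12 of the 65 cells, Mmp8 (neutrophil collagenase) in 4, the chemokine receptor Cxcr2 in 4 and Il1b in 0. These genes outside the naming rule were chosen after their values were seen.

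By likeness to the summed members over the 7956 thinned WT cells (Pearson correlation of log1p counts, a description over cells that include the member-rich ones), 10 genes came first among 7093 genes at 10 CPM or more. Wfdc21, Fcnb, Ifitm6 and Lgals3 reached that level only through the member-rich cells. Wfdc21 (0.69), Fcnb (0.53), Ifitm6 (0.52), Pglyrp1 (0.50) and Cebpe (0.48) led, followed by Hp (0.42), Trem3 (0.38), Anxa1 (0.36), Lgals3 (0.27) and Prdx5 (0.23). Cebpe, which encodes C/EBPε, had UMIs in 63 of the 65 member-rich cells and in 3.51% of the other WT cells. Over the libraries, Wfdc21 had 2995 WT and 9 cKO UMIs, Fcnb 1136 and 4, and Hp (haptoglobin) 2237 and 64. Prdx5, an antioxidant enzyme, was by contrast counted at 222 CPM (WT) and 216 CPM (cKO).

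The 3 antigens used for the sort were scarce in the member-rich cells. Kit had UMIs in 3 of 65 (4.62%) against 26.4% of other WT cells, Ly6a (Sca-1) in 1 (1.54%) against 14.5% and Flt3 in 0 against 32.0%. Of other surface antigens of blood progenitors, Cd34 was found in 7 against 73.7% and Cd48 in 8 against 54.0%. Ptprc (CD45), which all leukocytes carry, was found in 32 (49.2%) against 27.5%. By transcripts, then, these cells do not match the label of sorted HSPCs, and how they came into the library was not tested. In them the members took a median of 50.9% of the UMIs, which lowers the CPM of every other gene. Of 10 cell cycle genes none differed more than 4-fold from the other cells, against 26.2% of 9136 genes lower and 1.54% higher. Their median log2 ratio was -0.23, and that of all genes -1.08. Birc5 (survivin) had UMIs in 47 of the 65 cells (39.6% of other cells) and Top2a (topoisomerase) in 35 (44.2%). In fewer member-rich than other cells were Mcm2 (16.9% and 28.6%), Mcm5 (30.8% and 32.2%) and Pcna (35.4% and 47.2%).

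Outside the member-rich cells the WT library still held UMIs of the members in most cells. After thinning, 66.4% (65.3 to 67.4) of all WT cells and 28.3% (27.4 to 29.3) of cKO cells had a UMI of at least 1 member, and without Lyz2 39.2% (38.1 to 40.3) and 1.24% (1.02 to 1.50). Without thinning, the shares for all members were 89.9% and 73.9%. The 8085 other WT cells had 4292 UMIs of S100a8, 2255 of S100a9, 1844 of Ngp, 1398 of Camp and 26 to 168 each of Ltf, Lcn2, Chil3, Cd177 and Retnlg. With the member-rich cells left out of WT, the log2 ratio was -6.85 for S100a8, -8.40 for Ngp and -5.49 for Chil3. For Lcn2 it turned to 0.59 (0.34 to 0.86), from 4.02 CPM (WT) and 6.08 CPM (cKO).

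Between 0.5% and 5% lay 11 WT cells with 1499 member UMIs, of which 1060 were S100a8 and 338 S100a9. In 3 of them, with 504 to 897 UMIs, neither S100 gene had a UMI and 3 to 23 UMIs of Lyz2 made up most of the members, and 8 had S100a8. The cell with the highest share (4.48%) had 202 UMIs of S100a8 and 58 of S100a9 but 0 of Ngp, Camp and Ltf. The cell with 280 UMIs of S100a8 and 120 of S100a9 had 17 of Camp, and another had 117, 83 and 18 of S100a8, S100a9 and Retnlg. Ltf and Cd177 had no UMI in any of the 11 cells.

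In the 8074 WT cells under 0.5%, single UMIs prevailed. Of the cells with S100a8, 79.8% had 1 UMI, and so did 89.7% of those with Ngp and 92.6% of those with Camp. The most in 1 cell was 25 for S100a8, 5 for Ngp and 1 for Chil3. The mix of the 9 members without Lyz2 had the same 4 leading members as in the member-rich cells. S100a8 made up 36.8% and 44.6%, S100a9 21.8% and 21.8%, Ngp 20.9% and 17.4%, Camp 15.7% and 12.8%, Chil3 1.31% and 0.958%, and Ltf 1.15% and 1.19%, in the cells under 0.5% and in the member-rich cells. Further apart were Lcn2 at 1.88% against 0.968%, Cd177 at 0.296% against 0.186% and Retnlg at 0.193% against 0.0824%. Lyz2 left this pattern, with 395 UMIs per 100 of S100a8 against 7.33.

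The number of these UMIs per cell was alike in most gates, whose depths differed. Cells were gated by markers of a type (3 or more detected markers for most types, and a cell in more than 1 gate was left out of all). Per WT cell under 0.5%, the 9 members without Lyz2 had 1.04 UMIs (0.930 to 1.15) in the HSC gate, 1.07 in the lymphoid-primed (LMPP) gate, 1.18 in the megakaryocyte gate, 1.15 in the erythroid gate, 1.25 (0.893 to 1.70) in the T/NK gate and 1.03 in the monocyte and dendritic cell gate. The GMP gate, set by Mpo, Elane, Prtn3 and Ctsg, had 1.41 (1.30 to 1.53) in cells with a median of 11433 UMIs, against 3478 in the HSC gate. After thinning the order turned: S100a8 had a UMI in 7.85% (5.50 to 10.8) of GMP-gated and 19.9% (15.7 to 24.7) of HSC-gated cells. Thinning to a common total keeps a smaller part of a deep cell's UMIs, so like counts per cell give a lower share there. With the cells from 0.5% to 5% included, the GMP gate had 4.18, and 1 cell in it held 417 UMIs.

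T and NK cells should lack these transcripts. Their gate is loose, however, since 1 of its markers, Nkg7, had UMIs in 77.2% of the WT cells that were not member-rich. After thinning, S100a8 had a UMI in 20.7% (7.99 to 39.7) of 29 T/NK-gated WT cells, which is 6 cells, and in 100% of the member-rich cells. Ungated cells had 18.7%, LMPP-gated cells 16.5%, megakaryocyte-gated cells 13.6%, monocyte and dendritic cells 6.08% (3.07 to 10.6) and erythroid cells 2.94%. The gates thus differed after thinning, which lowers the share in deep cells where counts per cell are alike. T/NK-gated cells had a median of 4839 UMIs and HSC-gated cells 3478. The share in the HSC gate is not above that in the T/NK gate, so it is not read as expression, although the T/NK interval is wide. Over deciles of depth among the cells that were not member-rich, the 9 members without Lyz2 stayed between 0.979 and 1.16 UMIs per cell under 0.5% in the lower 9 deciles and stood at 1.38 in the deepest, while the median depth went from 2269 to 11722 UMIs. With the cells from 0.5% to 5% included, the deepest decile had 2.27, through 4 such cells. The part of free RNA in these counts was not tested.

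**Figure D5:**
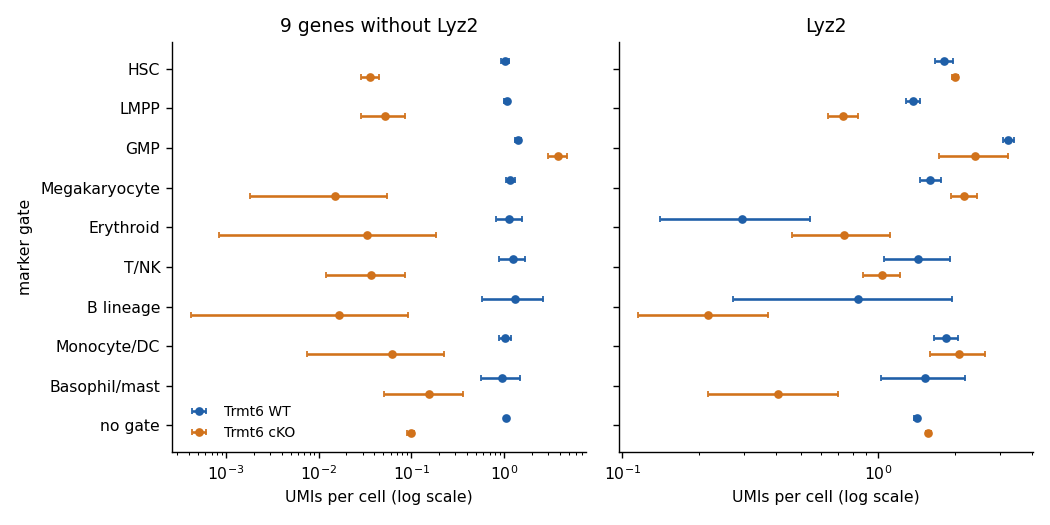
UMIs per cell (log axes) of the 9 members without Lyz2 (left) and of Lyz2 (right) by marker gate, in cells with under 0.5% of their UMIs from the members, with exact 95% Poisson intervals. In WT the left panel runs from 0.947 to 1.41 UMIs per cell, and in cKO the GMP gate (18 cells) is at 3.83, or 2.12 without the 1 cell that holds 33 of its 69 UMIs. Cell depth differs between gates.

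Lyz2 UMIs per cell differed between marker gates in both libraries, and the depth of the gates differed too. Per WT cell under 0.5% it had 1.82 UMIs (1.67 to 1.97) in the HSC gate, 3.23 in the GMP gate, 1.84 in the monocyte and dendritic cell gate, 1.37 in the LMPP gate, 1.44 (1.05 to 1.92) in the T/NK gate and 0.294 (0.141 to 0.541) in the erythroid gate. In cKO it had 1.99 (1.94 to 2.05) in the HSC gate, 2.17 in the megakaryocyte gate, 0.732 in the LMPP gate, 1.04 in the T/NK gate and 0.217 (0.115 to 0.371) in the B lineage gate. The erythroid gate in WT and the B lineage gate in cKO thus lay below the HSC gate beyond counting error.

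The per-cell order of the GMP and HSC gates in WT turned on the CPM scale, where Lyz2 stood at 283 CPM in the GMP and 452 CPM in the HSC gate, and after thinning, with 43.4% and 58.6% of cells. In both libraries the HSC gate was above the LMPP gate. The HSC gate had 452 CPM in WT and 202 CPM in cKO, and the LMPP gate 249 and 62.5 CPM. The share of thinned cells with Lyz2 was 58.6% (53.0 to 64.0) in WT HSC-gated cells against 48.3% (29.4 to 67.5) in T/NK-gated cells, and in cKO 35.0% against 19.0%. The WT intervals overlap, so the WT HSC gate is not read as above the T/NK gate. The WT monocyte and dendritic cell gate had 34.3% (27.4 to 41.7). Without the member-rich cells, the libraries stood at 307 (WT) and 158 CPM (cKO) of Lyz2, for a log2 ratio of -0.96. Per cell the libraries were close, at 1.59 (WT) and 1.64 (cKO) UMIs of Lyz2, with a UMI in 72.1% of all WT and 72.5% of cKO cells before thinning and in 46.7% and 27.4% after it.

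In the cKO library Lcn2 was the main member other than Lyz2. It had 535 UMIs in 267 cells, with at most 11 in 1 cell, and after thinning 0.836% of cells had a UMI. In cKO the GMP gate was highest, at 136 CPM (98.4 to 183) over 18 cells and 116 CPM (80.1 to 162) without the cell with the most member UMIs, against 1.60 CPM (1.13 to 2.20) in the HSC gate and 3.66 CPM (0.997 to 9.37) in the T/NK gate. In WT the GMP gate had 11.1 CPM (8.38 to 14.5) of Lcn2, ungated cells 2.88 CPM (2.25 to 3.62) and the T/NK gate, on 2 UMIs, 12.5 CPM (1.52 to 45.2), so the GMP gate was not above the T/NK gate there.

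Of the cKO cells, 111 had 2 or more Lcn2 UMIs and held 70.8% of the Lcn2 UMIs, and 2 of them had a UMI of any of the other 8 members besides Lyz2. These cells were chosen by Lcn2 after its values were seen, and they were deep, with a median of 15757 UMIs against 10071. Ctsg had UMIs in 94.6% of them against 32.5% of other cKO cells, Mpo in 64.0% against 10.2%, Anxa3 in 56.8% against 8.02%, Ms4a3 in 44.1% against 6.31%, Trem3 in 41.4% against 2.19% and Elane in 18.0% against 1.57%. On the CPM scale, Mpo stood at 1270 against 50.7 CPM and Ctsg at 2416 against 231 CPM. Mcpt8 and Prss34, markers of the basophil and mast cell gate, were also among the most raised genes. Mcpt8 had UMIs in 31.5% against 4.58%, and Prss34 stood at 226 against 29.6 CPM through 1 of the 111 cells.

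The other members in cKO were too few to describe by cell type. The 78 UMIs of S100a8 lay in 51 cells and the 31 of S100a9 in 24. A single GMP-gated cell with 22359 UMIs held 19 of S100a8, 4 of S100a9, 9 of Lcn2 and 1 of Chil3, and it is the cKO cell with the most member UMIs without Lyz2. The next had 11 UMIs, all of Lcn2. In the HSC gate the 9 members without Lyz2 had 0.0363 UMIs per cell and in the T/NK gate 0.0368 (0.0119 to 0.0858). Among all cKO barcodes, 1 more, over the gene limit, had 114 member UMIs, and with all barcodes the log2 ratio of S100a8 was -10.13.

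Among cKO pairs with 50 cells or more for each member, Lcn2 and Lyz2 were found together in 183 cells against a product of 194, a ratio of 0.946. S100a8 and Lcn2 were found together in 4 cells against 1.61, and S100a8 and Lyz2 in 33 against 37.0.

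Close family copies were checked, since shared reads could move between them. Lyz1 had 4 WT UMIs and 1 in cKO, so little of the Lyz2 signal was counted on its near copy, and Chil4 had 0 in both. Chil1 was in part like Chil3, with 203 WT and 20 cKO UMIs, 91.1% of the WT UMIs in member-rich cells. Chil5 was counted 24 and 277 times, and Retn, the resistin gene, 52 and 110 times. The other S100 genes at 5 CPM were not lower in cKO to the degree of S100a8 and S100a9. S100a6 was higher in cKO, at 244 against 55.4 CPM (log2 ratio 2.14, 2.08 to 2.20), and so was S100a4 (1.80), while S100a11 had 511 and 450 CPM and S100a10 341 and 247 CPM. S100a1 and S100a13 were at -0.63 and -0.59. In member-rich against other WT cells, S100a11 (1891 and 495 CPM) and S100a6 (206 and 53.7 CPM) were higher. There S100a10 (6.36 and 345 CPM) was lower, and S100a4 had no UMI.

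The other genes of the neutrophil programme were followed by lists that were written with earlier results known, and a median of all genes at 5 CPM or more of -0.07 stands beside them. All 8 azurophil and early myeloid genes were lower in cKO, 7 of them more than 2-fold, with a median log2 ratio of -2.68. Of all 9139 genes, 5.32% were more than 2-fold lower and 2.91% more than 2-fold higher. Mpo had 75.7 CPM in cKO against 2128 CPM in WT (-4.81), and Prtn3 at a log2 ratio of -2.15. Of the 14 late and tertiary granule genes that reached 5 CPM outside the member-rich cells, 6 were more than 2-fold lower and none more than 2-fold higher, with a median of -0.74. Of the 9136 genes at that level, 5.21% were more than 2-fold lower. Itgb2, a beta-2 integrin subunit, went against the list, at 23.3 CPM in cKO and 12.3 CPM in WT (0.93), and so did Adpgk (0.29).

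Of 9 transcription factors at 5 CPM, 6 were more than 2-fold lower and 1 more than 2-fold higher, against 5.32% and 2.91% of all genes, with a median of -1.59. Cebpe had 29.8 CPM in WT against 0.534 CPM in cKO (log2 ratio -5.79, -6.26 to -5.38), and Junb and Fos, the factors with the highest WT levels, were at -1.59 and -2.64. Gfi1, a repressor needed for neutrophil maturation, was at 16.1 and 39.8 CPM (1.30, 1.18 to 1.42), and Cebpb at 133 and 247 CPM (0.89). For receptors and binding partners of the members, 4 of 12 genes in the matrix reached 5 CPM, and 1 was more than 2-fold lower, Pecam1 (-1.42), which encodes a binding partner of CD177. Bsg and Emb, receptors for S100A8 and S100A9, had the highest WT levels of that list and log2 ratios of 0.08 and -0.66. The S100 receptors Tlr4 (57 WT and 155 cKO UMIs) and Ager (14 and 27) were under that level.

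Surface antigens and the cell cycle genes were counted over the libraries as well. Of all 9139 genes at 5 CPM, 5.32% were more than 2-fold lower in cKO and 2.91% more than 2-fold higher. Of the 6 surface antigens (Kit, Ly6a and Flt3 from the sort, and Cd34, Cd48 and Ptprc), 2 were more than 2-fold lower in cKO, Kit (62.4 and 21.3 CPM) and Flt3 (93.2 and 34.0 CPM), and 1 was more than 2-fold higher, Ly6a, at 143 CPM in cKO against 34.2 CPM in WT (2.06, 1.98 to 2.14), with a median of -0.85. None of the 10 cell cycle genes differed more than 2-fold in either direction (median -0.26), which is near those shares. Of the 6 family copies at 5 CPM, 2 were more than 2-fold higher and none more than 2-fold lower (median -0.32).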

How the data were processed

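The deposited files are raw UMI counts, 1 matrix per library, from Cell Ranger 6.0.0 run by the authors on mm10. The labels give version 2 of the 3-prime kit, the study's methods version 3. The members and gene lists were chosen with earlier results of these data known. Barcodes were kept by the limits of the study: over 200 genes, under 4000 genes and 10% mitochondrial UMIs in WT, under 4500 and 5% in cKO, and under 5% hemoglobin UMIs. Of 8869 WT and 9260 cKO barcodes, 8763 and 9151 passed. Each cell's doublet score was the fraction of simulated doublets among its 50 neighbours in 20 components of 1500 variable genes, and the highest 0.8% per 1000 barcodes were marked, which took 613 and 672 cells. This scoring was tested on simulated data.

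CPM were computed from counts summed over cells, log2 ratios with 0.5 prior counts, and exact intervals with scipy 1.17.1 (Poisson, Clopper-Pearson and conditional binomial). A count of 0 was limited by 3 counts. PCR and capture errors are not covered. With 1 library per group no test was made. Named were the members, the lists by counts with the 2 highest WT levels and genes against the list, the 10 genes most like the members, and family copies. Gates over cells under 0.5% were added after the data were seen. Scaling alternatives were the TMM factor of edgeR 4.0.16 and median-of-ratios factors. Positions are from GENCODE M21, promoters from RefSeq, in which all 10 members matched.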

Additional observations from a re-analysis of the deposited data

How the results depend on the processing

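No paired analysis was possible because each genotype had 1 library. No interval here covers animals or sorting. The log2 ratio of the summed members, -5.09, was -5.26 without doublet removal, -5.05 without the upper gene limit, -5.21 over all barcodes, -4.99 with the TMM factor, -4.98 with median-of-ratios factors, -4.99 without mitochondrial and ribosomal protein genes and -4.58 with each cell scaled first. Median-of-ratios factors moved every log2 ratio by 0.10. Leaving out the member-rich cells gave -1.73. Added after the data were seen, leaving out Lyz2 gave -9.34, and leaving out both gave -4.93. The share of WT member UMIs in the top 1% of cells, 91.0%, was 91.5% without doublet removal, 91.4% over all barcodes, 86.5% after thinning and 96.0% without Lyz2. The share of WT cells with a member, 66.4%, was 44.0% at 1000 UMIs, 89.9% unthinned and 39.2% without Lyz2. In cKO, 28.3% became 29.9% without doublet removal, 15.5% at 1000 UMIs, 73.9% unthinned and 1.24% without Lyz2. The co-detection ratio, 5.27, was 10.9 at 1000 UMIs, 2.34 unthinned and 1.04 without the member-rich cells over all 45 pairs, 12 of which then had no cell with both (1.12 over the 20 pairs with a product of 5 cells or more). Without a minimum level, 13.0% of genes were more than 2-fold lower instead of 5.32%. The 65 member-rich cells were 89 without doublet removal, 71 at a 2% limit and 63 at 10%. Leaving out the member-rich cells reversed Lcn2 to 0.59. The causes of these shifts were not tested beyond what each alternative leaves out.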
